A study of Mus musculus with 6 samples.

Results

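Voltage-gated potassium (Kv) channel subunits were followed across the cell classes of the mouse brain and between kidney-diseased and control animals. The genes were all those whose symbol names a Kcna, Kcnb, Kcnc, Kcnd, Kcnf, Kcng, Kcnh, Kcnq, Kcns or Kcnv subunit, with the 3 Kcnab genes and the 4 Kcnip genes. This gave 47 of the 32285 genes in the count matrices. Nuclei came from brains of wildtype C57BL/6 mice. One group had sham surgery and the other had 5/6 nephrectomy, removal of most of the kidney tissue, which leaves the animals with chronic kidney disease. Both groups were examined 6 weeks later, with 3 libraries in each. The libraries are labelled as samples and nothing says that each is 1 animal, so p-values measure the spread between libraries.

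A Kv channel is a ring of pore-forming α subunits that opens when the membrane depolarises and lets potassium leave the cell. Kv1 (Kcna) and Kv7 (Kcnq) channels open near the firing threshold, Kv3 (Kcnc) channels repolarise fast-spiking cells, and Kv4 (Kcnd) channels carry the A-type current of dendrites. Kvβ (Kcnab) subunits bind Kv1 channels and KChIP (Kcnip) subunits bind Kv4 channels, while the Kcnf, Kcng, Kcns and Kcnv subunits form no channel alone and modify Kv2 (Kcnb) channels.

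The libraries held 2637 to 14756 barcodes and 15691316 to 41532967 UMIs (unique molecular identifiers, which count transcripts). Nuclei were placed in a class from their marker UMIs, and 13540 of 40685 were. Most of the others, 20499 nuclei, carried markers of several classes. These were 38.0% to 62.8% of all nuclei kept per library, placed or not, and sham 3 and nephrectomy 1 had the longest barcode lists. The classes were 1171 excitatory, 1384 inhibitory and 4573 striatal projection neurons, 2406 astrocytes, 3233 oligodendrocytes, 219 oligodendrocyte precursors (OPCs), 283 microglia and 252 endothelial nuclei. Only 10 mural and 9 fibroblast nuclei were found and these were not tested. The names stand for nuclei that are like these cells by their markers. Nephrectomy 1 held only 22 of the excitatory nuclei. The series' text names the cortex, yet striatal projection neurons were the largest class. UMIs were summed per library and class, and levels are counts per 1e6 UMIs of that class and library (CPM). Marker genes kept out of the gate were highest in their own class, for example 2259 CPM for the inhibitory list in inhibitory nuclei against 33.0 in excitatory nuclei (medians over libraries). The striatal list was uneven in inhibitory nuclei, at 1464, 498 and 872 CPM in sham 1 to 3 and 479, 2222 and 1268 in nephrectomy 1 to 3, against 2088 to 2799 in striatal nuclei. The excitatory list set the neuron classes less apart, at 4430 CPM in excitatory, 2879 in striatal and 2128 in inhibitory nuclei (medians over libraries). It also stood at 2889 in microglia, and Mef2c on it is also a microglial gene. Kcnab1, Kcnab3, Kcna6, Kcnd3, Kcnh7, Kcnip1, Kcnip4, Kcnq3 and Kcnq5 of the genes named below each overlap another annotated gene (Kcnab3 its antisense Kcnab3os, Kcnip1 Kcnmb1, Kcnh7 Gca), and as the use of strand is not stated the source of their UMIs is uncertain. In such sums, fewer expressing cells and less RNA per cell cannot be told apart.

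The 3 neuron classes carried different sets of Kv subunits. Of 37 genes with enough UMIs to be tested, 29 differed between inhibitory and excitatory neurons, 12 of them higher and 17 lower in inhibitory neurons, beside 29.0% of all genes tested (13.7% higher, 15.2% lower). Striatal projection neurons differed from excitatory neurons in 27 (10 higher, 17 lower, beside 37.1% of all genes, 19.5% higher and 17.5% lower) and from inhibitory neurons in 31 (17 higher, 14 lower, beside 37.1% of all genes, 19.2% higher and 17.9% lower). The other 10 genes did not pass the filter on low counts, and genes that passed through 1 class alone were bound to differ, so these counts describe the tested genes. Among all 41 genes with at least 100 UMIs in the classified nuclei, the highest pooled level was in inhibitory neurons for 12, in striatal neurons for 11, in excitatory neurons for 10, in OPCs for 4, in oligodendrocytes for 2, and in astrocytes and microglia for 1 each. For most of these 41 genes the library ranges of the highest and the second class overlapped. The ratio of their pooled levels was as low as 1.001 (Kcnf1) and 1.003 (Kcnc4). The 6 genes under 100 UMIs were Kcna7, Kcna10, Kcng2, Kcng4, Kcnq1 and Kcnv2.

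**Figure D1:**
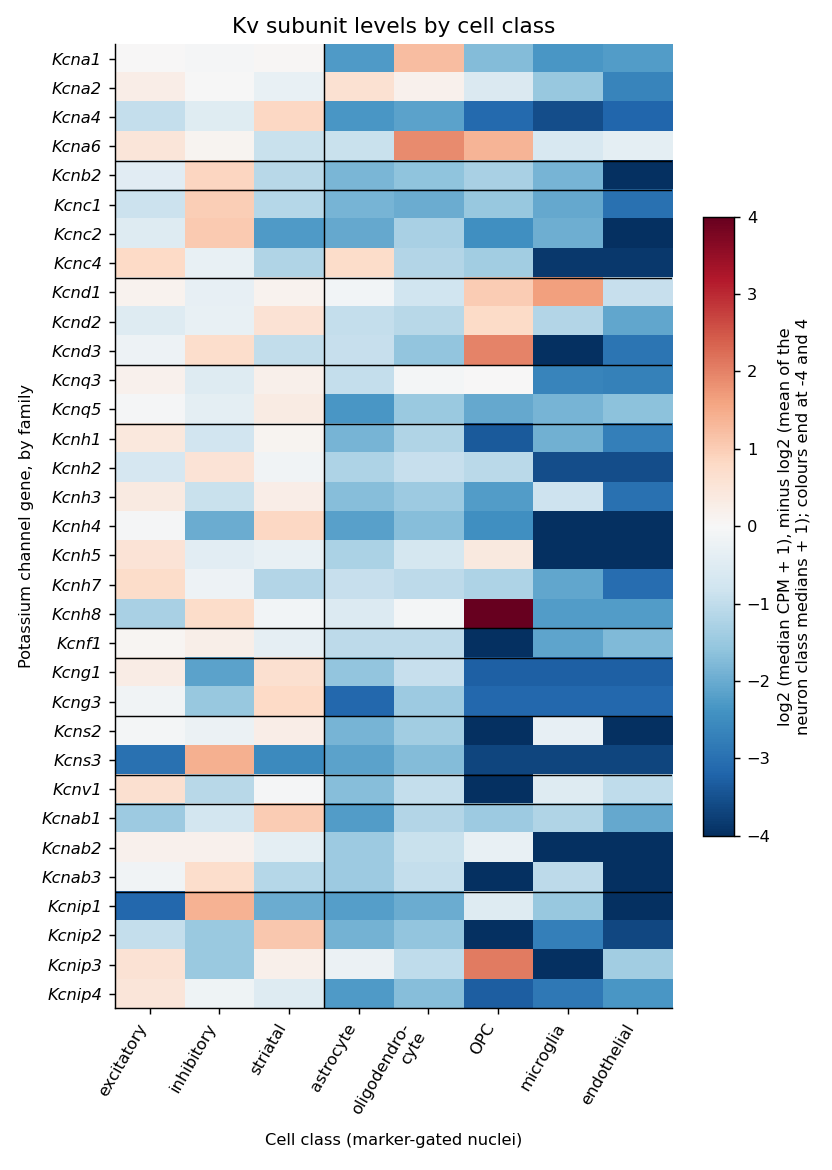
Each row is 1 of 33 tested Kv genes and each column a cell class. Colour gives the log2 of the median CPM over libraries plus 1, minus the log2 of the mean of the 3 neuron medians plus 1. Red cells outside the neurons are few, with Kcna1 and Kcna6 in oligodendrocytes and Kcnh8, Kcnd3 and Kcnip3 in OPCs among them.

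As a class, striatal projection neurons stood apart from the other 2 neuron classes by a Kv1 channel, its β subunit and a Kv4 partner. Kcna4 (Kv1.4, an A-type Kv1 subunit, chr2:107290639-107298502 in mm10) was at 275, 304 and 393 CPM (lowest, median and highest of 6 libraries) in striatal neurons and at 62.3, 88.1 and 98.5 in excitatory neurons. The libraries of the 2 classes did not overlap. The difference was 2.05 ± 0.15 on the log2 scale (± SE, edgeR adjusted p = 3.5e-14), and against inhibitory neurons, at 67.5 to 213 CPM, it was 1.37 ± 0.14. The highest inhibitory values of Kcna4, 189 CPM in sham 1 and 213 in nephrectomy 2, were in the 2 libraries with the most striatal marker RNA in that class, and its part in them was not tested. Kcnab1 (Kvβ1, which speeds inactivation of Kv1 channels, chr3:65109384-65378223) was at 260, 315 and 362 CPM in striatal neurons, 41.2, 56.0 and 77.7 in excitatory neurons and 90.4, 93.3 and 104 in inhibitory neurons. The striatal level lay above both other ranges, by 2.45 ± 0.13 against excitatory and 1.88 ± 0.13 against inhibitory neurons (log2, edgeR adjusted p = 3.1e-22 and 3.2e-18). Kcnip2 (KChIP2, a calcium-binding partner of Kv4 channels, chr19:45791839-45816061) was at 136, 231 and 242 CPM, against 40.2, 55.9 and 67.9 in excitatory and 31.99, 37.8 and 77.2 in inhibitory neurons. It was higher by 1.93 ± 0.17 and 2.44 ± 0.19 on the log2 scale, and sham 1 was the library with the lowest striatal value. The inhibitory nuclei marked by Pvalb, described below, had 157 to 302 CPM of Kcnab1 and 43.1 to 189 of Kcnip2. Both ranges overlapped those of striatal neurons, while Kcna4 was at 0 to 39.5 CPM in these nuclei. Kcnh4, an ether-à-go-go-like subunit, was 3.23 ± 0.22 higher on the log2 scale in striatal than in inhibitory neurons and 1.17 ± 0.15 higher than in excitatory neurons. Kv4.2 itself, Kcnd2, had medians of 151 CPM in striatal, 82.7 in inhibitory and 71.1 in excitatory neurons, and also passed the test in both comparisons.

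Promoters are shown for the genes that were among the 4 largest increases of striatal neurons over both other neuron classes and whose window overlaps no annotated exon. Each sequence is the 250 bases before a RefSeq transcription start on GRCm38.p6, read 5′ to 3′ on the gene's strand. Capitals mark GGGCGG or its reverse complement, the GC box bound by Sp1-type factors. Kcnab1 has 3 starts, which 3′ UMIs cannot tell apart.
Kcnip2, chr19:45816064-45816313, minus strand: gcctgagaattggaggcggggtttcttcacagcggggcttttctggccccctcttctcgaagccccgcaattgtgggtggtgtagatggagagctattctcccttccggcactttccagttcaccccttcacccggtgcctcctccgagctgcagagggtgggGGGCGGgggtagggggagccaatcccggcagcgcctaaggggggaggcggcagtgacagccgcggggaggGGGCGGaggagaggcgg
Kcnab1 first start, chr3:64948962-64949211, plus strand: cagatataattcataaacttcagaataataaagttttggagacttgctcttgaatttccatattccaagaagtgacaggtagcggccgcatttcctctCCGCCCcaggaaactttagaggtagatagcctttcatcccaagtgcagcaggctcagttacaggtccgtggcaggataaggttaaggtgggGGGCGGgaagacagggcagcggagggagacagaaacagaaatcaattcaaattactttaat
Kcnab1 second start, chr3:65108764-65109013, plus strand: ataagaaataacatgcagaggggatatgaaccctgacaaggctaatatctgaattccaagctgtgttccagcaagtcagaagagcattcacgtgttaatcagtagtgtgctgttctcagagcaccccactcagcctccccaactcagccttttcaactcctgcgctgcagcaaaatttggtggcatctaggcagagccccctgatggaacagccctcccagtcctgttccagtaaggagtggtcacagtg
Kcnab1, the third start, chr3:65187853-65188102, plus strand: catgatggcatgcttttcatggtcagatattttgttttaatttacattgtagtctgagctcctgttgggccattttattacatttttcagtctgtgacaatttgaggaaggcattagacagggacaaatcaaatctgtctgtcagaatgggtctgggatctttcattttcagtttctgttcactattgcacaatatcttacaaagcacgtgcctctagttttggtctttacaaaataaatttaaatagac
The Kcnip2 window held 15 CpG dinucleotides and 66.8% G or C, with 2 GC boxes. The 3 Kcnab1 windows held 6, 2 and 1 CpG dinucleotides, and the first of them had 2 GC boxes while the others had none. The later 2 Kcnab1 windows each held CACGTG, the E-box read the same on both strands. Over all RefSeq windows of this length, 32.7% held the GC box, 6.02% CACGTG and 12.4% TATAAA on either strand. Of 45 windows found for 31 of the Kv genes, 22 held the GC box, 3 CACGTG and 0 TATAAA. These are matches of letters only.

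Inhibitory neurons had more of the Kv3 genes Kcnc1 and Kcnc2 than excitatory neurons, and genes that were near 0 in excitatory neurons. Kcnc1 (Kv3.1, chr7:46396497-46438704) was at 406, 520 and 626 CPM in inhibitory neurons and at 109, 143 and 160 in excitatory neurons (6 libraries each). The ranges did not overlap, and the difference was 1.75 ± 0.10 on the log2 scale (edgeR adjusted p = 1.6e-29). Kcnc2 (Kv3.2) was at 131, 165 and 187 CPM in inhibitory neurons and at 13.2, 15.5 and 26.3 in striatal neurons. Striatal minus inhibitory, the difference was -3.04 ± 0.13 on the log2 scale. Kcnc1 and Kcnc4 were also lower in striatal than in inhibitory neurons, at -1.91 ± 0.09 and -0.88 ± 0.32, while between inhibitory and excitatory neurons Kcnc4 (Kv3.4) ran the other way, with 4.26, 10.9 and 30.9 CPM in inhibitory and 22.5, 24.2 and 26.1 in excitatory neurons. These ranges overlapped, and Kcnc4 lost its call under a stricter gate (edgeR adjusted p = 0.27).

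Kcns3 (Kv9.3, a silent subunit that modifies Kv2 channels, chr12:11090202-11151056) was at 15.6, 33.2 and 40.7 CPM in inhibitory neurons against 0, 0.59 and 3.02 in excitatory neurons. With 137 and 6 UMIs behind them, the fitted difference was 4.62 ± 0.44 (log2). Kcnip1 (KChIP1, chr11:33629339-33993152) was at 78.2, 108 and 158 CPM against 0, 3.70 and 5.61, a difference of 4.61 ± 0.25 (edgeR adjusted p = 2.3e-30).

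Excitatory neurons had more of another group of subunits. Kcnh7 (Kv11.3, of the ERG type, chr2:62693414-63184287) was at 394, 489 and 595 CPM in excitatory neurons and at 105, 130 and 148 in striatal neurons. These ranges did not overlap, and Kcnh7 was lower in striatal neurons, at -1.89 ± 0.14 on the log2 scale. Kcnc4, Kcnc2 and Kcna6 were also lower in striatal than in excitatory neurons, at -2.21 ± 0.25, -1.51 ± 0.15 and -1.40 ± 0.15. Kcnip3 (KChIP3, also known as the calcium-binding repressor DREAM) had 45.1, 57.5 and 64.8 CPM in excitatory and 7.20, 13.02 and 27.0 in inhibitory neurons. Kcnv1 (Kv8.1, a silent subunit) had 33.8, 69.1 and 86.0 CPM in excitatory and 5.19, 19.8 and 23.2 in inhibitory neurons. Neither pair of ranges overlapped, with differences of -2.28 ± 0.21 and -2.07 ± 0.19 (inhibitory minus excitatory, log2). Of the Kv7 genes, which carry the M-current, Kcnq3 and Kcnq5 were lower in inhibitory than in excitatory neurons, at -0.93 ± 0.12 and -0.46 ± 0.15. Kcnb2 (Kv2.2) ran the other way, with 64.3, 80.2 and 116 CPM in excitatory and 73.4, 202 and 341 in inhibitory neurons, ranges that overlapped (1.22 ± 0.18). Its highest inhibitory values were in nephrectomy 2 (341 CPM) and sham 1 (274 CPM). Among the neuron classes the pooled Kcnb2 level was lowest in striatal neurons. Under a stricter gate, 17 genes were called between inhibitory and excitatory neurons and 17 between striatal and excitatory neurons.

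**Figure D2:**
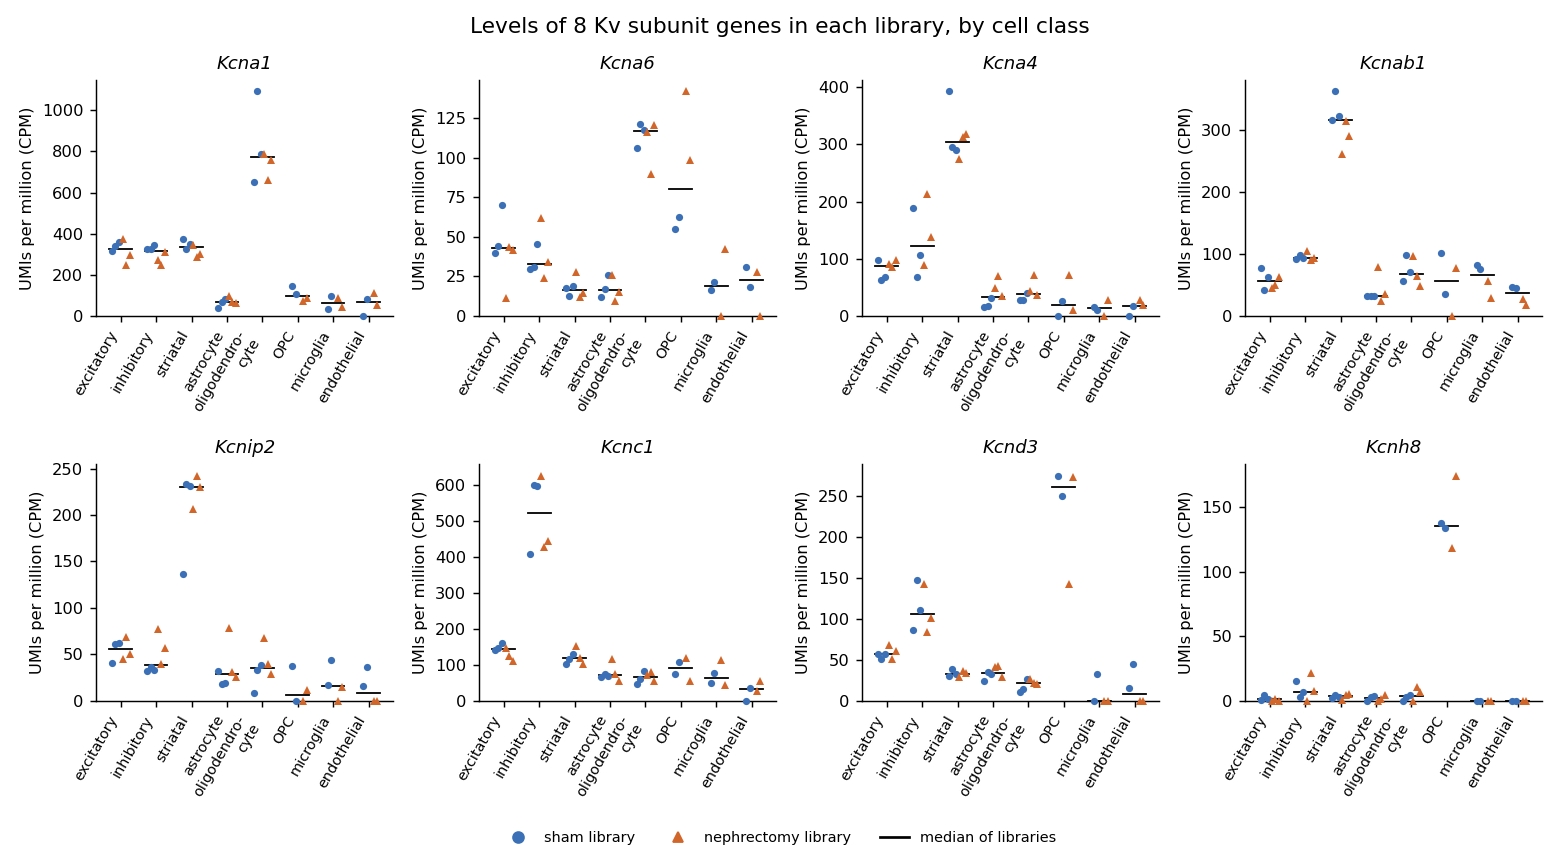
Each point is the CPM of 1 gene in 1 library (y axis, linear from 0) for the 8 cell classes (x axis), circles for sham, triangles for nephrectomy, and bars for the median. Kcna4, Kcnab1 and Kcnip2 stand out in striatal neurons, Kcnc1 in inhibitory neurons, Kcna1 and Kcna6 in oligodendrocytes, and Kcnd3 and Kcnh8 in OPCs, which have 4 libraries.

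Interneurons of 3 kinds were marked by Pvalb, Sst or Vip, giving 62 Pvalb-, 184 Sst- and 280 Vip-marked nuclei. A single UMI of the marker was enough if that marker held most of the UMIs of these 3 genes. The part of stray RNA in these marks was not tested. Pvalb marks fast-spiking basket and chandelier cells. Of 31 genes tested, 12 differed between Pvalb- and Sst-marked nuclei (8 higher and 4 lower in Pvalb, beside 5.43% of all genes, 2.2% higher and 3.23% lower) and 15 between Pvalb- and Vip-marked nuclei (10 higher, 5 lower, beside 9.27%, 3.57% higher and 5.7% lower). Between Sst- and Vip-marked nuclei 7 differed (2 higher in Sst, 5 lower, beside 6.06%, 2.55% higher and 3.51% lower). The Kv3 genes Kcnc1 and Kcnc2 were higher in Pvalb-marked nuclei in both comparisons.

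Kcnc1 in Pvalb-marked nuclei was at 1174 and 1874 CPM in sham 1 and 3 and at 1339 and 912 in nephrectomy 2 and 3, the 4 libraries with at least 10 such nuclei. In Sst-marked nuclei it ranged from 296 to 628 CPM over 5 libraries and in Vip-marked nuclei from 476 to 641 over 6. Every Pvalb value lay above both ranges, and the difference from Sst was 1.71 ± 0.14 (log2, edgeR adjusted p = 1.5e-21). Kcna1 (Kv1.1, a low-threshold channel of axons) showed the same separation, with 535 to 1099 CPM in Pvalb, 158 to 266 in Sst and 113 to 238 in Vip. It was higher in Pvalb by 1.75 ± 0.17 and 1.82 ± 0.16 on the log2 scale. Kcnc2 had medians of 380, 209 and 110 CPM in Pvalb, Sst and Vip. Kcnip2 was higher in Pvalb than in Sst by 2.39 ± 0.43, with sham 3 low at 43.1 CPM, within the Sst range of 0 to 48.2, beside 148, 162 and 189 in the other libraries.

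Lower in Pvalb-marked nuclei was Kcnb2, at 19.7 to 47.2 CPM against 133 to 228 in Sst and 65.2 to 238 in Vip, without overlap. Only 7 Kcnb2 UMIs lay behind the Pvalb values. The differences were -2.80 ± 0.43 and -2.87 ± 0.42 (log2). Kcna4 was lower in Pvalb as well, by -2.54 ± 0.54 against Sst and -2.47 ± 0.53 against Vip. It had 5 UMIs in Pvalb, at 0 to 39.5 CPM. Kcnd3 (Kv4.3) had 3 UMIs in Pvalb against 126 in Vip, a ratio of pooled levels of 10.4 (95% exact interval 3.47 to 51.0, counting error only). Against Sst, Kcnd3 lost its call without nephrectomy 2 (-2.08) or nephrectomy 3 (-2.14). Kcnip1 was higher in Vip than in Sst, at 137 to 242 against 51.4 to 107 CPM, with a difference of -1.08 ± 0.25 (Sst minus Vip). Kcnc2 and Kcnq3 were the 2 genes higher in Sst than in Vip, by 1.05 ± 0.20 and 0.92 ± 0.20. Kcns3 in Pvalb over Vip (2.66 ± 0.64), Kcnq5 and Kcnd3 in Sst against Vip (-1.23 ± 0.34 and -0.96 ± 0.26) all lost their calls without sham 1, at 1.86, -0.95 and -0.76. Without nephrectomy 3, Kcnd3 in Sst against Vip was at -0.89 with an adjusted p of 0.058.

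**Figure D3:**
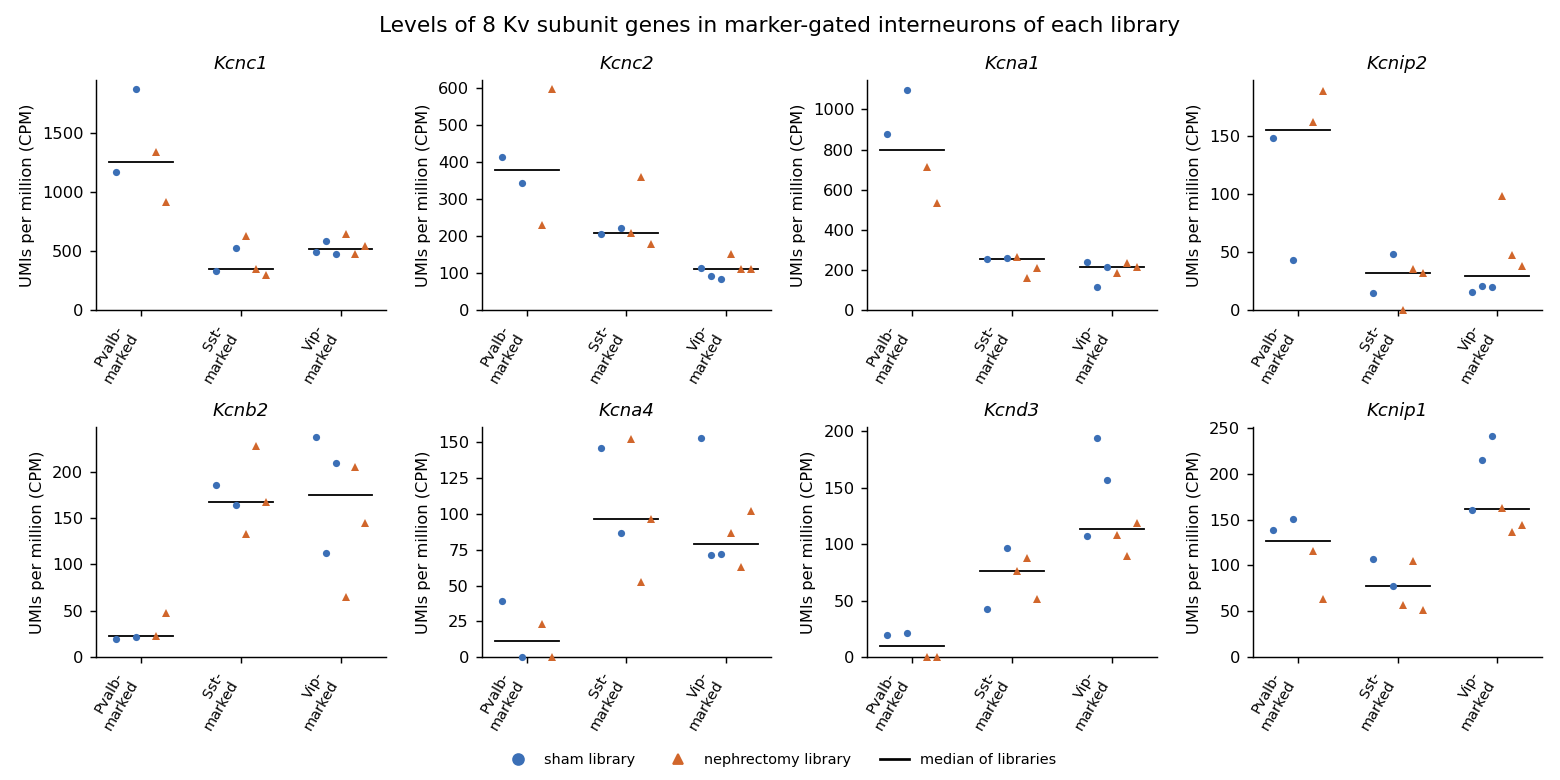
CPM of 8 Kv genes (y axis, linear from 0) in Pvalb-, Sst- and Vip-marked nuclei (x axis) of each library, with circles for sham, triangles for nephrectomy and bars for the median. Kcnc1 in Pvalb-marked nuclei lies between 912 and 1874 CPM, above all Sst and Vip values, while Kcnb2 is lowest in Pvalb-marked nuclei, at 19.7 to 47.2 CPM.

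Excitatory neurons were divided into 319 upper-layer and 336 layer 6 nuclei by their markers. Layer 6 had 14 of 31 genes called, 2 higher and 12 lower (beside 14.4% of all genes, 6.32% higher and 8.05% lower). Kcnb2 ran from 85.9 to 151 CPM in upper-layer nuclei and from 10.1 to 64.2 in layer 6 (5 libraries each), without overlap. The difference was -1.82 ± 0.19 on the log2 scale (edgeR adjusted p = 4.9e-15). Kcnip4 (KChIP4, another Kv4 partner) had 229 to 575 CPM in upper layers and 117 to 211 in layer 6, also without overlap, and differed by -1.46 ± 0.19. Kcnq5 (Kv7.5) and Kcnc2 were lower too, at -1.47 ± 0.22 and -1.41 ± 0.25. Kcna1 was higher in layer 6, at 379 to 425 against 161 to 300 CPM (0.61 ± 0.10). Kcna6 (Kv1.6) was called higher in layer 6 at 0.82 ± 0.25 but not without nephrectomy 2 (0.50) or nephrectomy 3 (0.73). Under the stricter gate 1 gene was called.

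The direct- and indirect-pathway neurons of the striatum, 1679 Drd1- and 1471 Drd2-marked nuclei, were compared with each other. Of 31 genes 2 were called, 1 higher and 1 lower in Drd2-marked nuclei, beside 4.7% of all genes (2.46% higher, 2.24% lower). Kcnb2 had 39.4 to 71.7 CPM in Drd1- and 32.1 to 70.0 in Drd2-marked nuclei (difference -0.44 ± 0.12), and Kcnd3 had 25.7 to 33.7 and 31.5 to 60.5 (0.46 ± 0.15). Ranges of both genes overlapped. DESeq2 called neither. At an unadjusted edgeR p under 0.05 there were 10 of 31 Kv genes, or 32.3%, beside 13.03% of all genes. Leaving out sham 1, sham 2 or nephrectomy 3 ended the call of Kcnb2 (-0.39, -0.39 and -0.41), and leaving out any of the 6 libraries ended that of Kcnd3 (0.33 to 0.51).

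Glial and endothelial nuclei had less of most Kv subunits than neurons. Against the mean of the 3 neuron classes, 30 of 37 genes were lower in astrocytes and 2 higher, beside 59.6% of all genes (29.3% lower, 30.3% higher). In oligodendrocytes 29 were lower and 3 higher, beside 57.8% (28.6% lower, 29.2% higher). OPCs had 21 lower and 4 higher, beside 22.6% (13% lower, 9.56% higher). In microglia 23 were lower and 1 higher, beside 36.3% (22.7% lower, 13.5% higher). In endothelial nuclei 27 were lower and 0 higher, beside 37.9% (23.1% lower, 14.8% higher). A scaled gate and a gate on marker excess left 12 and 15 of the endothelial calls. The median difference was -1.24 in astrocytes, -0.95 in oligodendrocytes, -1.47 in OPCs, -2.07 in microglia and -2.50 in endothelial nuclei (log2). With genes at 0 UMIs set to a floor of 3 counts, the last 3 medians were -1.29, -1.90 and -2.24. Over all genes the medians lay between -0.45 and 0.01. A list of neuronal genes (Snap25, Syt1, Rbfox3, Camk2a, Nrgn) differed from neurons by a median of -1.53 in astrocytes, -1.13 in oligodendrocytes, -2.72 in OPCs, -2.34 in microglia and -2.02 in endothelial nuclei. Neuronal RNA was thus counted in every class, and its part in the Kv levels of these classes was not tested.

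Oligodendrocytes had 3 Kv1 genes above neurons and the fourth tested, Kcna4, below. Kcna1 (chr6:126640397-126646384) was at 653, 771 and 1094 CPM in oligodendrocytes, above the highest single value of any neuron class, 374. The difference from neurons was 1.40 ± 0.08 on the log2 scale (edgeR adjusted p = 2.5e-30). Pvalb-marked nuclei alone, a small part of the inhibitory class, had 535 to 1099 CPM. Kcna6 (chr6:126708329-126740674) was at 90.1, 117 and 121 CPM against a highest value of 70.5 in any neuron class. It was higher by 1.92 ± 0.11 (log2, edgeR adjusted p = 3.9e-30). Kcna2 (Kv1.2), with 149 to 190 CPM, was 0.29 ± 0.09 higher, and this call was lost without sham 3 (0.18). All 6 libraries lay within the range of the excitatory class, 142 to 224 CPM. Kcna4 was at 28.0 to 71.6 CPM, with a difference of -1.76 ± 0.16. Kcnc1 and Kcnip4 were lower, at -1.53 ± 0.09 and -1.39 ± 0.16.

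Astrocytes had 2 genes above neurons. Kcna2 was at 146, 226 and 304 CPM, higher by 0.76 ± 0.08 (log2), and Kcnc4 at 16.2, 22.9 and 32.6 CPM, higher by 1.08 ± 0.21. Both overlapped the excitatory class, where Kcnc4 had 22.5 to 26.1 CPM. Kcna1 (36.7 to 96.1 CPM), Kcnq5 and Kcnip4 were among the genes lower in astrocytes, at -2.10 ± 0.11, -2.09 ± 0.16 and -2.01 ± 0.18.

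OPCs shared only Kcna6 of these increases, at 55.1 to 142 CPM over 4 libraries (1.08 ± 0.34). That call was lost without nephrectomy 2 (0.88) or nephrectomy 3 (0.91). Kcnh8 (Kv12.1, an ether-à-go-go-like subunit, chr17:52602709-52979194) was at 138 and 134 CPM in sham 2 and 3 and at 119 and 175 in nephrectomy 2 and 3. No library of another class exceeded 21.3 CPM. Its difference from neurons was 4.87 ± 0.39 (log2, edgeR adjusted p = 2.2e-18). Kcnd3 (chr3:105452330-105674002) was at 142 to 275 CPM and Kcnip3 (chr2:127456498-127522094) at 55.1 to 170 CPM, higher than neurons by 1.78 ± 0.21 and 1.76 ± 0.29. A Kv4 channel subunit and a KChIP were therefore both higher in OPCs, but Kcnd3 overlapped the inhibitory class (83.6 to 148 CPM) and Kcnip3 the excitatory class (45.1 to 64.8 CPM). Kcnip4 and Kcna4 were lower in OPCs, at -3.34 ± 0.51 and -3.13 ± 0.55. Kcnv1 and Kcns2 had 1 UMI each in OPCs. The ratios of pooled levels, neurons to OPCs, were 17.1 (95% exact interval 3.06 to 674) and 12.1 (2.16 to 477).

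In microglia the 1 gene called higher was Kcnd1 (Kv4.1), with 11 UMIs, at 49.2 and 76.2 CPM in sham 2 and 3 and 0 and 14.1 in nephrectomy 2 and 3. The log2 difference of 1.67 ± 0.59 was 0.66 without sham 3 and 1.64 without sham 2, with edgeR adjusted p = 0.61 and 0.056. Kcna4 and Kcnip4 were lower in microglia, at -3.66 ± 0.66 and -3.51 ± 0.58, and Kcna4 in endothelial nuclei, at -3.61 ± 0.67. Kcnh4 had 0 UMIs in microglia and was at least 4.09-fold higher in neurons (floor of 3 counts over the class). Kcns2 had 0 UMIs in endothelial nuclei and was at least 3.12-fold higher in neurons. Kcnip3 had 1 UMI in microglia (neuron to microglia ratio 13.3, 2.39 to 527) and Kcnc2 had 2 in endothelial nuclei (7.43, 2.05 to 61.4). Kcnip3 had the opposite sign in microglia under a scaled gate and an excess gate, as had Kcnc2 in endothelial nuclei under the excess gate. At 308443 and 301036 UMIs in all, these 2 classes allow few statements on single subunits.

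Proteins that place or modify Kv channels were followed as a list of 24, of which 23 were found by symbol. In the comparisons of neuron classes, 12 of 19 tested differed between inhibitory and excitatory neurons, 3 of them higher and 9 lower in inhibitory neurons (13.7% and 15.2% of all genes). Striatal neurons had 8 higher and 7 lower than excitatory neurons (19.5% and 17.5% of all genes), and 9 higher and 4 lower than inhibitory neurons (19.2% and 17.9%). Akap5, the anchoring protein that brings kinases to Kv7 channels, was 2.01 ± 0.12 higher (log2) in striatal than in inhibitory neurons. Dpp6, a Kv4 partner, was 1.44 ± 0.11 and 1.37 ± 0.10 higher in inhibitory and in striatal than in excitatory neurons. Oligodendrocytes had 4 of 19 higher and 12 lower than neurons, beside 29.2% and 28.6% of all genes. Cntn2, which organises Kv1 channels beside the nodes of Ranvier, was the largest of the 4 at 3.37 ± 0.09. Dlg1, Kcnrg and Ank3 were the others, at 1.16 ± 0.07, 0.64 ± 0.25 and 0.59 ± 0.10. Cntnap2, with which Cntn2 pairs at the axon, differed by -1.52 ± 0.12.

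No Kv gene was called between nephrectomy and sham. Of 164 tests of 1 gene in 1 class, covering 40 genes in 6 classes, none was called by edgeR or DESeq2, and 9 had an unadjusted edgeR p under 0.05. The tested genes numbered 33 in excitatory, 31 in inhibitory, 39 in striatal neurons, 25 in astrocytes, 26 in oligodendrocytes and 10 in OPCs. In that order, 1, 2, 0, 4, 1 and 1 of them had an unadjusted edgeR p under 0.05. The shares of all genes were 4.6%, 3.9%, 5.1%, 5.0%, 4.8% and 6.2%. Calls over all genes were 0.0% in the first 5 classes and 0.127% in OPCs. No Kv gene passed the filter in microglia or endothelial nuclei, where groups did not overlap for 31.4% and 28.4% of all genes tested, and 7 genes were tested in no class. Median differences of the Kv genes were -0.10, 0.02, -0.04, 0.15, 0.25 and -0.02 (log2, nephrectomy minus sham, in that order of classes), beside medians of all genes between -0.01 and 0.01. At the depth of excitatory neurons 28.0% of simulated 2-fold and 93.7% of 4-fold changes were recovered, and in striatal neurons 45.5% and 98.9%. The simulation gave every gene the same set spread between libraries and changed only genes above a minimum of summed UMIs. Changes of 2-fold or less could therefore be missed, and larger ones in genes with a greater spread or fewer UMIs.

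**Figure D4:**
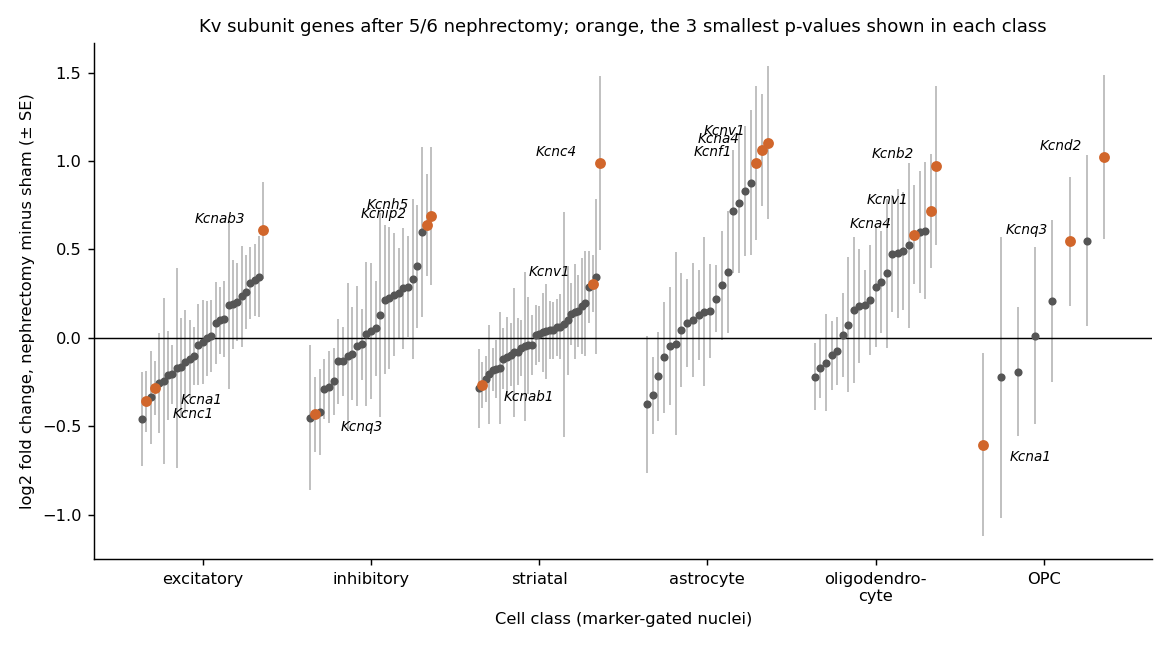
Points are log2 fold changes of tested Kv genes (nephrectomy minus sham, y axis) in 6 cell classes (x axis), sorted within each class, with bars for ± SE. Orange points are the 3 smallest p-values per class among the genes shown, and none passed the adjusted threshold.

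In inhibitory neurons Kcnip2 was at 31.99, 36.3 and 32.9 CPM in sham and 77.2, 39.2 and 56.3 in nephrectomy, a difference of 0.64 ± 0.29 with no overlap. Kcnq3, a subunit of the M-current, was at 166, 179 and 149 against 166, 102 and 121 CPM, and the groups overlapped (-0.43 ± 0.21). Kcna1 had no overlap either, at 324, 327 and 344 against 274, 249 and 310 CPM (-0.29 ± 0.17). In all 3 of 31 genes were without overlap, beside 9.31% of all genes. The striatal marker RNA of this class, given above, overlapped between the groups and was highest in nephrectomy 2, and its part in these values was not tested. Vip-marked nuclei were 20.3%, 25.8% and 24.6% of this class in sham 1 to 3 and 30.7%, 14.1% and 21% in nephrectomy 1 to 3. Sst-marked nuclei were 18.3%, 10.1% and 13.1%, and 29.3%, 7.85% and 14.2%, in the same order. The part of this make-up in the values was not tested either.

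In excitatory neurons Kcnab3 (Kvβ3) was at 18.7, 23.1 and 19.96 CPM in sham and 33.8, 32.4 and 31.8 in nephrectomy, without overlap. The difference was 0.61 ± 0.28 (log2, edgeR adjusted p = 0.992). Kcnc1 was at 141, 145 and 160 against 146, 123 and 109 CPM (-0.36 ± 0.17), with overlap. Kcna1 was at 318, 338 and 362 against 372, 249 and 294 CPM (-0.28 ± 0.16), also with overlap, and its highest value came from nephrectomy 1 with 22 nuclei. Kcnc4, at 24.8 to 26.1 against 22.5 to 23.7 CPM, was the other gene without overlap (-0.17 ± 0.28), which makes 2 of 33, beside 11.2% of all genes.

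Striatal neurons were the deepest class by summed UMIs, with 1967282 to 4849909 per library. Striatal nuclei of nephrectomy 1 had a median of 1114 UMIs each, against 2547 to 6756.5 in the other libraries. Nephrectomy 1 also gave the lowest Kcnab1 and the highest Kcnc4 value below, and the part of its low depth per nucleus was not tested. Kcnab1 was at 316, 362 and 323 CPM in sham and 260, 314 and 289 in nephrectomy. The groups lay side by side without overlap, and the difference was -0.27 ± 0.13 (edgeR adjusted p = 0.887). Kcnc4 was at 1.23, 4.67 and 5.57 against 12.3, 5.08 and 5.78 CPM, with overlap and 110 UMIs in all (0.99 ± 0.49). Kcnv1 was at 35.5, 39.1 and 33.4 against 45.3, 46.8 and 46.2 CPM (0.31 ± 0.16). With Kcng3 (14.9 to 15.5 against 11.97 to 14.2 CPM) and Kcnq3 (266 to 280 against 237 to 256 CPM), both lower, 4 of 39 genes had no overlap between groups, beside 10.5% of all genes.

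**Figure D5:**
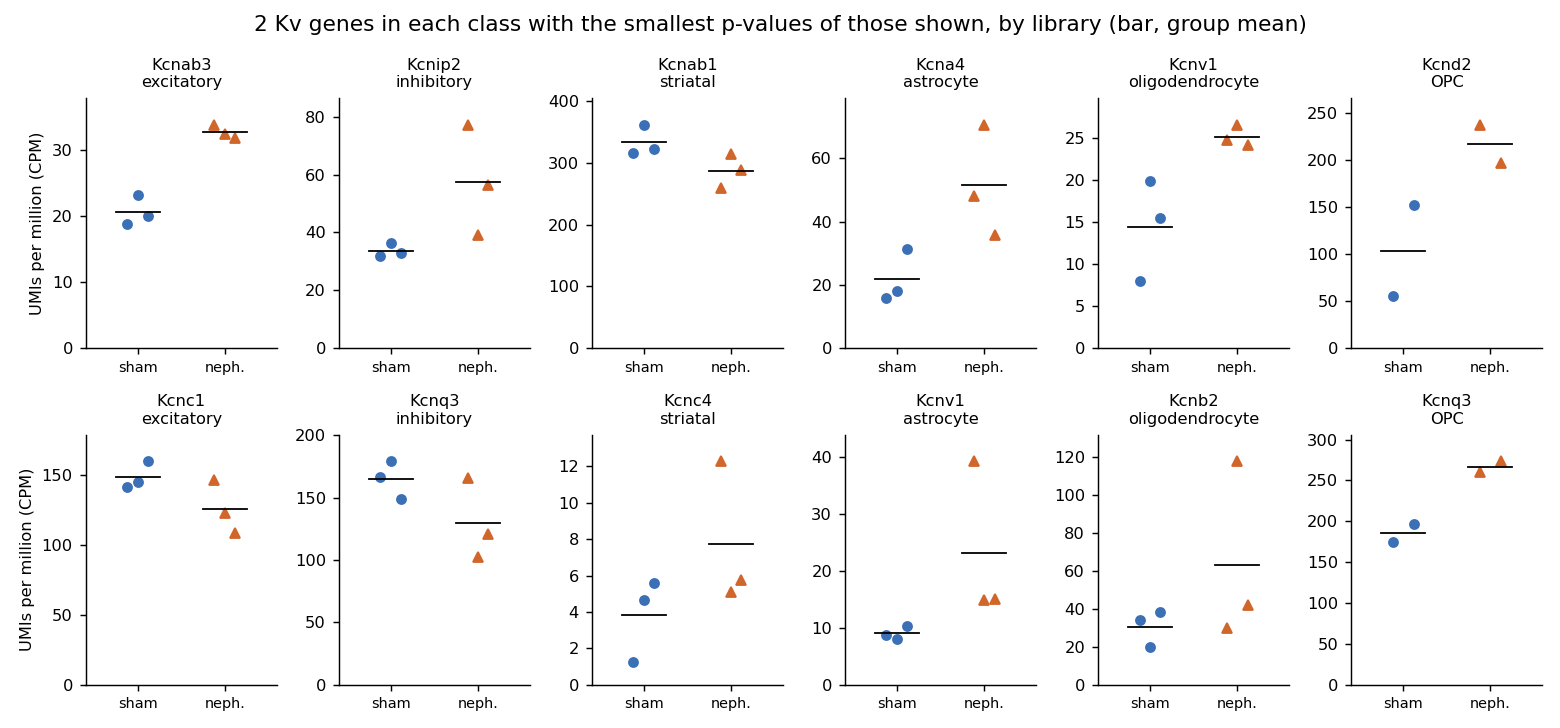
CPM per library (y axis, linear from 0) of 2 Kv genes in each class, those with the smallest p among the genes shown, sham circles on the left and nephrectomy triangles on the right, with bars for the group means. Kcnip2 in inhibitory neurons lies at 36.3 or less in sham and 39.2 or more in nephrectomy, and Kcna4 in astrocytes lies at 35.6 or more in nephrectomy.

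In astrocytes the 3 smallest p-values all belonged to genes that were higher after nephrectomy. Kcna4 was at 15.7, 18.2 and 31.3 CPM in sham and 48.0, 70.6 and 35.6 in nephrectomy (1.06 ± 0.32). Kcnv1 was at 8.74, 8.09 and 10.4 against 39.3, 14.9 and 15.1 CPM (1.10 ± 0.43). Kcnf1 (Kv5.1, a silent subunit) was at 15.7, 5.06 and 12.7 against 37.1, 20.4 and 16.04 CPM (0.99 ± 0.44). None of the 3 overlapped between groups, and the edgeR adjusted p was 0.947 for each. These were the only separated genes of 25, beside 11.0% of all genes. Kcna4 stood at 0.48 under the stricter gate and 0.61 under the excess gate, Kcnv1 at 0.64 without nephrectomy 1, and Kcnf1 at 0.64 without sham 2. The summed neuronal list in astrocytes was 1017, 926 and 1028 CPM in sham and 2129, 1210 and 1061 in nephrectomy, also without overlap and highest in nephrectomy 1. All 3 genes were lower in astrocytes than in neurons, and the part of neuronal RNA in these values was not tested.

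In oligodendrocytes Kcnv1 was at 7.99, 19.8 and 15.5 CPM in sham and 24.7, 26.6 and 24.1 in nephrectomy (0.72 ± 0.32). It was the 1 gene of 26 without overlap, beside 10.4% of all genes. Kcnb2 (0.97 ± 0.45) rested on 118 CPM in nephrectomy 2 beside 30.1 and 42.2 in the others, and Kcna4 was at 28.0, 28.0 and 39.5 against 44.1, 71.6 and 36.2 CPM (0.58 ± 0.28). The neuronal list stood at 1327, 1137 and 1633 against 2596, 1648 and 1302 CPM in these libraries, and its part was again not tested. In OPCs, with 2 libraries a group, Kcnd2 was at 55.1 and 152 against 237 and 197 CPM (1.02 ± 0.47, edgeR adjusted p = 0.708). There 3 of 10 genes had no overlap, beside 34.9% of all genes, the others being Kcnq3 (174 and 197 against 261 and 273 CPM) and Kcna1 (147 and 107 against 71.1 and 87.4 CPM).

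Whether nephrectomy acted differently in the neuron classes was asked with an interaction term. Of 38 Kv genes tested, 0 were called by edgeR or DESeq2 in each of the 3 contrasts, beside 0.0% of all genes. Unadjusted p under 0.05 came to 4 genes for inhibitory against excitatory neurons, 2 for striatal against excitatory and 1 for striatal against inhibitory, which is 10.5%, 5.26% and 2.63% of the Kv genes beside 4.28%, 3.07% and 3.67% of all genes. Of the list of partner proteins, 0 of the 18 or 19 tested in neurons, astrocytes and oligodendrocytes were called between nephrectomy and sham.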

How the data were processed

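Members and gene lists were chosen with earlier results of these data known. Nuclei sorted from brain were captured with the Chromium 3′ kit (version 3.1) and sequenced on a NextSeq 500, per the labels. The deposited values are counts, UMIs per gene and nucleus made by the authors with Cell Ranger on mm10 with introns. The sources give its version differently (protocol 3.0, submitters' processing notes 2.1.1, matrix headers 6.0.1). Whether strand was used is not stated. Barcodes needed 500 genes or more and no more than 5% of UMIs from mitochondrial genes. A nucleus was placed in a class with at least 3 marker UMIs from at least 2 markers and at least 2/3 of its marker UMIs in that class. Interneuron subclasses needed a single UMI of their marker and most of the UMIs of the 3 markers. Layer and Drd1 or Drd2 subclasses needed at least 2 marker UMIs and at least 2/3 of those of the pair. No doublet caller was run, and nuclei with mixed markers were left out. Sham 3 and nephrectomy 1 shared the most barcodes, 50 (0.396% of the smaller library). The largest share was 0.451%, with 14 barcodes, in sham 2 and nephrectomy 1. No library was a copy of another. Counts were summed per library and class with at least 20 nuclei (10 for subclasses), which gave 35208 to 4849909 UMIs per library and class. Intervals and floors cover counting error only. The sums were tested with edgeR 4.0.16 (quasi-likelihood, TMM, low-count filter), Benjamini-Hochberg adjustment over all genes tested and a threshold of 0.05. DESeq2 1.42.0 was an alternative. Simulated data with known changes were tested first. Named genes, a rule set with those lists, were the 3 smallest p per class for nephrectomy, and up to 4 per direction with the largest change among called genes with at least 20 CPM between classes. Kcnd2, Kcnq3, Kcnq5 and Kcnb2 between neuron classes and others not under that rule were named after their values were seen. Some genes are counted in the totals but not reported here. The labels state no pairing by replicate number. Coordinates are from GENCODE M21 (GRCm38, as mm10), by gene ID. Promoters are from RefSeq on GRCm38.p6.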

Additional observations from a re-analysis of the deposited data

How the results depend on the processing

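All refits kept 0 calls between nephrectomy and sham in every class and for the interaction. Settings tried were DESeq2 size factors and test, no low-count filter, a stricter gate, a scaled gate, nuclei with at least 1000 genes, the 4 libraries left without sham 3 and nephrectomy 1, each library left out and, chosen after seeing the data, a gate on marker excess. Of 1394 refits of named genes, 1389 kept their direction, and 60 of 84 named class comparisons were called in every refit. Counts that moved were, under the stricter gate, 17 (inhibitory against excitatory), 17 (striatal against excitatory), 2 (Sst against Vip), 1 (layer 6) and 0 (Drd2 against Drd1). Under the scaled gate they were 17 (striatal against excitatory), 12 (endothelial) and 0 (Drd2 against Drd1), and under the excess gate 15 (endothelial) and 1 (Drd2 against Drd1). Drd2 against Drd1 had 0 with DESeq2 and 1 in the 4 libraries. Leaving out each library gave 4 to 8 for Sst against Vip and 0 to 2 for Drd2 against Drd1. Reversed values were Kcnq3 in OPCs under the scaled gate (-0.12), Kcna1 in OPCs under the excess gate (0.019), Kcnip3 in microglia under the scaled and excess gates (0.29 and 0.19) and Kcnc2 in endothelial nuclei under the excess gate (0.031). The cause was not tested, and the gates keep different nuclei. With the replicate block, 0 Kv genes were called in any class and medians were -0.01, 0.07, -0.04, 0.14, 0.24 and 0.05. Deviations from group means correlated at -0.18 to 0.16 between same-numbered libraries and at -0.26 to 0.31 between different-numbered ones. With so few libraries in a group, these values cannot decide whether the numbers are a pairing. The stricter gate gave no value for OPCs or Pvalb-marked nuclei, nor 1000 genes for microglia and endothelial nuclei.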
